A study of Neurospora crassa with 24 samples.

Results

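The genes examined here encode the enzymes with which the filamentous fungus *Neurospora crassa* takes cellulose apart. They are 31 listed loci of the 9730 in the data, listed by enzyme family with no expression value in the rule, namely 9 cellobiohydrolases and endoglucanases of glycoside hydrolase families GH5, GH6, GH7 and GH45, 14 AA9 lytic polysaccharide monooxygenases (LPMOs), 6 β-glucosidases of families GH1 and GH3, and 2 cellobiose dehydrogenases. RNA-Seq compared 3 strains in 4 media with 2 independent libraries per combination, 24 in all. The strains were the WT (OR74A), a Δ*rco-3* mutant, which lacks RCO-3, a glucose sensor that does not transport sugar, and a Δ*col-26* mutant, which lacks a zinc cluster transcription factor. Each mutant is a single deletion strain, labelled as of OR74A background and listed in the study's methods as *mat a*. All mycelia were grown for 16 h at 28 °C in constant light on 2% sucrose, washed, and kept for 1 h in Vogel's minimal medium with no carbon source or with 0.05, 0.5 or 2% glucose. No medium was labelled as holding cellulose or cellobiose, so the values describe carbon starvation and glucose supply and not growth on the substrate of these enzymes.

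Cellulose is a chain of glucose units packed into crystals. LPMOs of family AA9 break the crystal surface by oxidation, and cellobiose dehydrogenases can hand them electrons. Endoglucanases cut within the chains, cellobiohydrolases release the disaccharide cellobiose from chain ends, and β-glucosidases split cellobiose into glucose, outside the cell or, after import by the cellodextrin transporters CDT-1 and CDT-2, within it. In *N. crassa* the transcription factors CLR-1 and CLR-2 activate these genes on cellulose and CRE-1 represses them when glucose is present.

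The values are FPKM, a measure of fragments scaled by transcript length and library size. A gene was called changed where limma on log2(FPKM + 1) gave an adjusted p below 0.001 and a log2 fold change of 1 or more in either direction. A stricter count also asked for a mean FPKM above 20 in a group compared. All log2 fold changes below are on this scale, which compresses the changes of weakly expressed genes, and errors are standard errors (SE) from the fit. The FPKM of a library summed to between 565181 and 616209, with 988 to 1304 loci listed at 0, and the relative depth read from the steps of 223 low genes lay at 95.6% to 104% of the median library. Read counts were not used here, so no counting interval is given. In the 8 Δ*rco-3* libraries *rco-3* had an FPKM of 0, whereas *col-26*, at 16.69 to 39.57 FPKM in the WT, still stood at 4.91 to 10.61 FPKM among the Δ*col-26* libraries. Whether the remaining fragments lie outside the deleted part was not tested.

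Most of the 31 genes were weakly transcribed. Their highest group mean passed 100 FPKM in 2 genes, *gh3-3* and *gh1-1*, passed 20 FPKM in 6 and reached 5 FPKM in 17. The 3 genes *gh7-4*, *gh6-1* and *gh61-11* stayed below a mean of 1 FPKM in every group and were not tested, and 28 were. The families lie scattered over the genome (OR74A assembly NC12), with 7 genes on chromosome I, 1 on II, 5 on III, 5 on IV, 5 on V, 6 on VI and 2 on VII. The closest pair was *gh3-3* (NCU08755, chromosome III, 5254966 to 5258478) and *gh61-5* (NCU08760, chromosome III, 5242495 to 5244087), 10879 bp apart. The summed FPKM of the 31 genes in the WT was 508 and 496 without carbon source, against 99.4 and 96.6 at 2% glucose. *gh3-3* and *gh1-1* together made up 63.9% and 65.6% of that sum without carbon source and 2.28% and 1.61% at 2% glucose. Within the summed FPKM of these 31 genes, the starved WT thus differed from the WT at 2% glucose mainly by this pair of β-glucosidases.

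**Figure D1:**
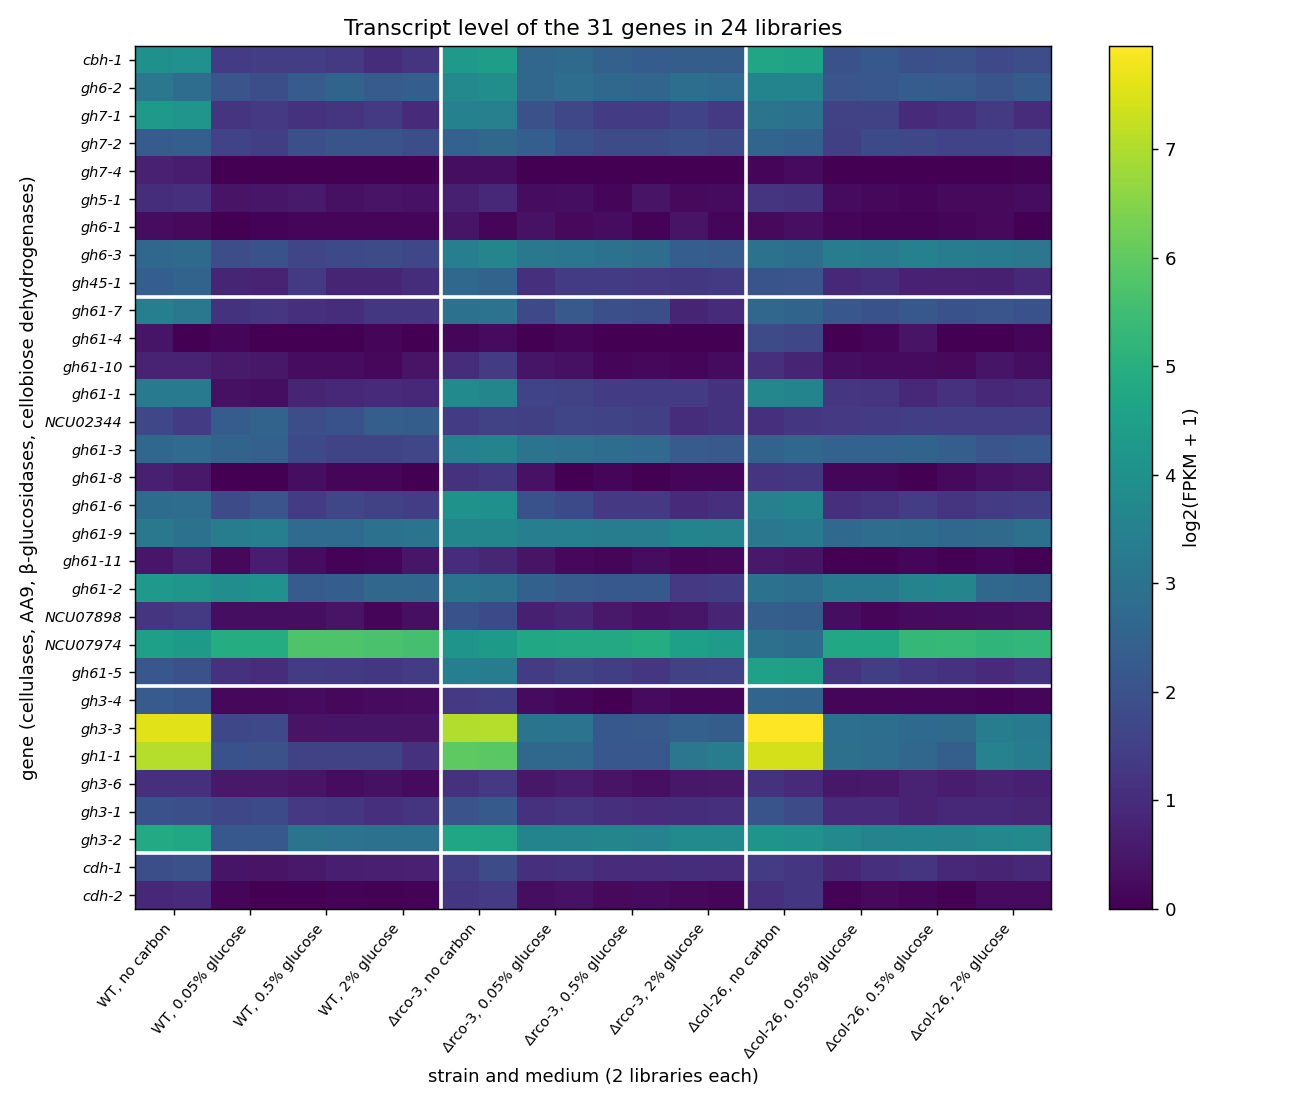
Colour gives log2(FPKM + 1) of each of the 31 genes (rows, by family) in each of the 24 libraries (columns, 2 adjacent libraries per strain and medium). White lines separate families and strains. *gh3-3* and *gh1-1* without carbon source are the brightest cells, at 59.8 to 246 FPKM, and *NCU07974* is brighter on glucose than without carbon source.

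The first question was which of the genes respond to the loss of carbon. In the WT, 15 of the 28 genes tested were called between no carbon source and 2% glucose, 14 higher and 1 lower. Of all genes tested 44.4% were called, 27.5% higher and 16.8% lower. The median log2 difference was 0.85 over the 31 genes and 0.13 over all loci. Among those tested, 3 of 7 cellobiohydrolases and endoglucanases, 6 of 13 AA9 genes, 4 of 6 β-glucosidases and 1 of 2 cellobiose dehydrogenases were higher without carbon source. The lower one was the AA9 gene *NCU07974*. With the FPKM threshold the counts were 3 higher (*gh3-3*, *gh1-1* and *gh3-2*) and 1 lower, against 29.3% of all genes, 16.9% higher and 12.4% lower. The split without that threshold was 12 and 2 by median-ratio scaling and 10 and 2 by quantile normalization. The calls of *gh61-3* and *NCU07898* were lost by median-ratio scaling (0.79 and 0.93) and by quantile normalization (0.65 and 0.63), the latter of which also lost *gh61-6* (0.90) and *cdh-1* (0.75). Without WT library 2 from the medium with no carbon source, *gh61-3* (1.0, just below 1 before rounding) and *NCU07898* (0.98) fell short of the fold threshold, and *NCU07898* also did without WT library 1 at 2% glucose (0.96).

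The same response was called in 18 genes of the Δ*rco-3* mutant, all of them higher, where 32.5% of all genes were called and 20% were called higher. The median was 1.10 over the 31 genes and 0.16 over all loci. With the FPKM threshold 2 remained, *gh3-3* and *gh1-1*, both higher, against 19.9% of all genes, 11.2% higher and 8.73% lower. Quantile normalization lowered this count to 10, and the calls of *gh6-3*, *gh61-10*, *gh61-8*, *NCU07898*, *gh3-1* and *cdh-2* were lost under both scalings. Without Δ*rco-3* library 2 from the medium with no carbon source, *gh61-10* stood at 0.87 and *gh3-1* at 0.97, and without library 1 at 2% glucose *gh61-10* stood at 0.99. In the Δ*col-26* mutant 14 genes were called, 13 higher and 1 lower, where 34.4% of all genes were called, 18.2% higher and 16.3% lower. With the FPKM threshold 4 were higher (*cbh-1*, *gh61-5*, *gh3-3* and *gh1-1*) and 1 lower (*NCU07974*), against 20.8% of all genes, 10.3% higher and 10.5% lower. The median was 0.90 over the 31 genes and 0.04 over all loci, and *gh3-1* was lost under both scalings (1.0, just below the threshold before rounding, and 0.89) and without Δ*col-26* library 1 from the medium with no carbon source (0.92).

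Called higher without carbon source in all 3 strains were 9 genes, *cbh-1*, *gh7-1*, *gh45-1*, *gh61-1*, *gh61-6*, *NCU07898*, *gh3-4*, *gh3-3* and *gh1-1*, where 12.2% of all genes tested were. Of these 9, 8 were called in all strains under median-ratio scaling and 5 under quantile normalization (*cbh-1*, *gh7-1*, *gh61-1*, *gh3-3* and *gh1-1*). In at least 1 strain 22 genes were called higher, where 33.4% of all genes were, and 17 and 16 under the scalings. The call was made in the WT alone for *gh3-2* and *cdh-1* (8.82% of all genes), in the Δ*rco-3* mutant alone for *gh6-3*, *gh61-10*, *gh61-8* and *cdh-2* (2.21%), all 4 of which were lost under both scalings, and in the Δ*col-26* mutant alone for *gh6-2* and *gh61-4* (2.28%). *gh61-10* and *gh61-4* passed the filter of 1 FPKM only through the starved group of the mutant in which they were called. *NCU07898* and *gh3-4* passed it only through the starved groups of the 3 strains, and *gh61-8* and *cdh-2* only through those of both mutants. The calls of these genes as higher without carbon source, which the counts include, are thus a description and not a test. A call in 1 strain and not in another does not show that the strains differ, and the tests of the difference are given gene by gene below. The highest group mean fell in the medium without carbon source for 25 of the 28 genes tested in the WT, 26 in the Δ*rco-3* mutant and 24 in the Δ*col-26* mutant, where 54.1%, 58.2% and 52.3% of all genes tested peaked there.

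**Figure D2:**
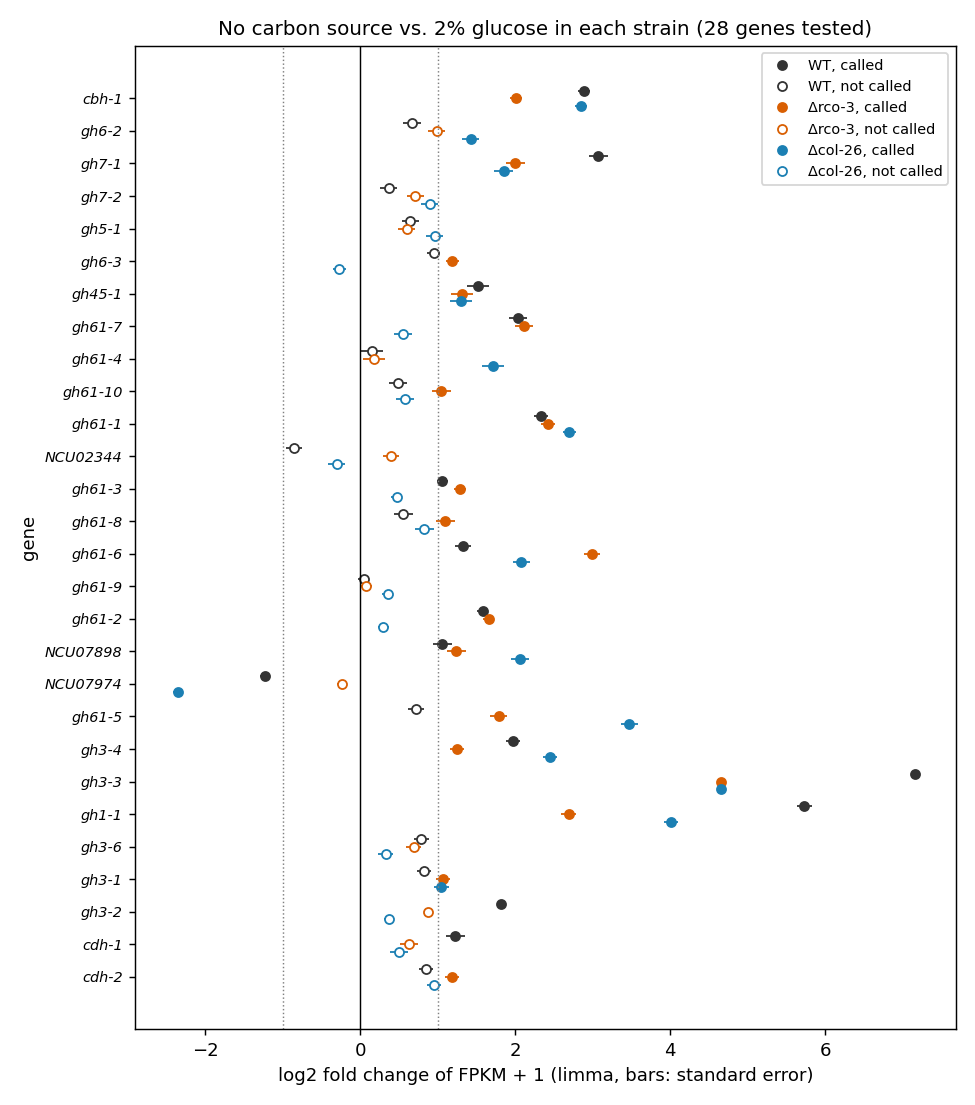
Points give the log2 fold change of FPKM + 1 between no carbon source and 2% glucose for each of the 28 genes tested, in the WT (black), Δ*rco-3* (orange) and Δ*col-26* (blue), with bars for the standard error. Filled points are called (adjusted p below 0.001 and beyond the dotted lines at 1 and -1). *gh3-3* lies at 7.15 in the WT and 4.65 in both mutants, and *NCU07974* lies on the negative side.

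Conidia are another cell type that a shaken culture can hold, and genes of conidial development were read in the same libraries. Whether their transcripts came from conidia or from mycelium was not tested. The summed FPKM of 6 genes of conidial development (*con-6*, *con-8*, *con-10*, *con-13*, *eas* and *fl*) was 357 to 366 in the starved WT and 9.31 to 33.9 in the WT on glucose, where *con-13* was at 0 in all 6 libraries. It was 4630 to 4810 in the starved Δ*rco-3* mutant and 591 to 912 on glucose, and 4830 to 5050 and 371 to 745 in the Δ*col-26* mutant. In each strain 4 of the 6 genes were called higher without carbon source than at 2% glucose, and *con-6*, *con-8*, *con-10* and *eas* were also called higher in both starved mutants than in the starved WT. None of the 61 calls of these 6 genes over the 21 comparisons changed sign under either scaling. Median-ratio scaling lost 4 of them and quantile normalization 7. The part of these genes in the results below was not tested. In RNA from a whole culture, fewer cells of a type and less RNA per cell cannot be told apart.

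Among the β-glucosidases *gh3-3* (NCU08755), a GH3 enzyme, had the largest response of the 31 genes. In the WT it stood at 191 and 193 FPKM without carbon source, 2.30 and 2.37 at 0.05% glucose, 0.35 and 0.37 at 0.5% and 0.38 and 0.34 at 2%. Both starved libraries lay 533-fold above 2% glucose by their mean FPKM, and the response was 7.15 ± 0.0474 (SE), adjusted p = 2.55e-27. The Δ*rco-3* libraries held 129 and 133 FPKM without carbon source, 7.36 and 7.08 at 0.05% glucose, 3.59 and 3.68 at 0.5% and 4.40 and 4.09 at 2%. Values in Δ*col-26* were 242 and 246 FPKM without carbon source, 6.45 and 6.28 at 0.05% glucose, 5.61 and 5.65 at 0.5% and 9.05 and 8.46 at 2%. At 2% glucose the gene was thus near 0 in the WT and clearly present in both mutants, 11.8-fold higher in the Δ*rco-3* strain and 24.3-fold higher in the Δ*col-26* strain, and the groups did not overlap. The response to starvation spanned 30.9-fold and 27.9-fold in the mutants and was smaller than in the WT by 2.49 on the log2 scale in each (adjusted p = 6.92e-17 and 4.24e-17). Without carbon source neither mutant passed the fold threshold against the WT, at -0.55 in the Δ*rco-3* strain and 0.35 in the Δ*col-26* strain. The difference between the strains' responses thus came with levels on glucose that were higher in the mutants.

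*gh1-1* (NCU00130, chromosome III, 2730966 to 2733380) encodes the GH1 β-glucosidase that splits imported cellobiose inside the cell. WT libraries held 134 and 133 FPKM without carbon source and 2.98 and 2.90, 1.98 and 1.90, and 1.89 and 1.22 FPKM at 0.05, then 0.5, then 2% glucose, a response of 5.73 ± 0.0957 (SE), adjusted p = 2.69e-21. Δ*rco-3* held 61.7 and 59.8 FPKM without carbon source and 5.39 and 5.25, 3.49 and 3.51, and 7.90 and 9.30 FPKM at 0.05, then 0.5, then 2% glucose. Δ*col-26* held 172 and 173 FPKM without carbon source and 6.57 and 6.14, 5.14 and 4.26, and 10.4 and 9.19 FPKM at 0.05, then 0.5, then 2% glucose. The starved Δ*rco-3* libraries were the lowest of the starved ones and lay below both WT libraries, at 0.46 of the WT mean, a difference that was called (-1.12 ± 0.0957 (SE), adjusted p = 3.84e-09). Starved Δ*col-26* was above the WT by 0.37 ± 0.0957, which was not called. At 2% glucose both mutants were called above the WT, by 1.92 ± 0.0957 in the Δ*rco-3* strain and 2.09 ± 0.0957 in the Δ*col-26* strain. Both mutants therefore responded less than the WT to starvation, by the test of the difference, with -3.04 ± 0.135 in the Δ*rco-3* strain and -1.72 ± 0.135 in the Δ*col-26* strain. Within each mutant the 2% glucose libraries lay above those at 0.5% glucose, whereas WT levels were highest, among the glucose media, at 0.05%.

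*gh3-2* (NCU08054) showed yet another pattern. Its WT values were 28.0 and 25.6 FPKM without carbon source, 3.57 and 3.56 at 0.05% glucose, 7.38 and 7.13 at 0.5% and 6.81 and 7.0 at 2%. In Δ*rco-3* they were 24.6 and 23.9 FPKM without carbon source, 11.03 and 10.8 at 0.05% glucose, 11.2 and 10.4 at 0.5% and 12.9 and 12.6 at 2%, and in Δ*col-26* 16.4 and 15.4 FPKM without carbon source, 12.5 and 10.9 at 0.05% glucose, 10.98 and 10.8 at 0.5% and 11.9 and 12.3 at 2%. It rose without carbon source in the WT (1.82 ± 0.0589 (SE), adjusted p = 1.42e-16), and the WT minimum was at 0.05% glucose, not at 2%. The mutants showed no such minimum, and at 0.05% glucose *gh3-2* was called higher than in the WT in both, by 1.39 ± 0.0589 and 1.47 ± 0.0589, of which the call in Δ*rco-3* was lost under both scalings (0.87 and 0.69). Its response to starvation was smaller in Δ*col-26* than in the WT by the test of the difference (-1.45 ± 0.0833 (SE), adjusted p = 7.14e-12), while the same test in Δ*rco-3* gave -0.94 and was not called.

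*gh3-4* (NCU04952), an extracellular β-glucosidase, was low everywhere and almost confined to starved mycelia in these libraries. It stood in the starved libraries at 3.83 and 3.43 FPKM in the WT, 1.5 and 1.77 in the Δ*rco-3* strain and 5.01 and 4.73 in the Δ*col-26* strain. On glucose the WT held 0.12 and 0.13 FPKM at 0.05%, 0.17 and 0.13 at 0.5% and 0.17 and 0.19 at 2%. The same media gave 0.17 and 0.09, 0.02 and 0.17, and 0.11 and 0.11 in Δ*rco-3*, and 0.11 and 0.08, 0.11 and 0.11, and 0.06 and 0.09 in Δ*col-26*. Every starved library was above every glucose library. The gene was called higher without carbon source in each strain, by 1.97, 1.25 and 2.45, of which the call in Δ*rco-3* was lost under quantile normalization (0.75). No glucose group reached a mean of 1 FPKM. *gh3-4* thus entered the tests only through starved groups, and its calls against glucose are a description. Starved Δ*rco-3* was called below starved Δ*col-26* (-1.16 ± 0.0911 (SE), adjusted p = 7.99e-10). The remaining GH3 genes were lower still, *gh3-1* at 0.69 to 3.72 FPKM and *gh3-6* at 0.17 to 1.48, each with its highest value in starved Δ*rco-3* library 2.

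**Figure D3:**
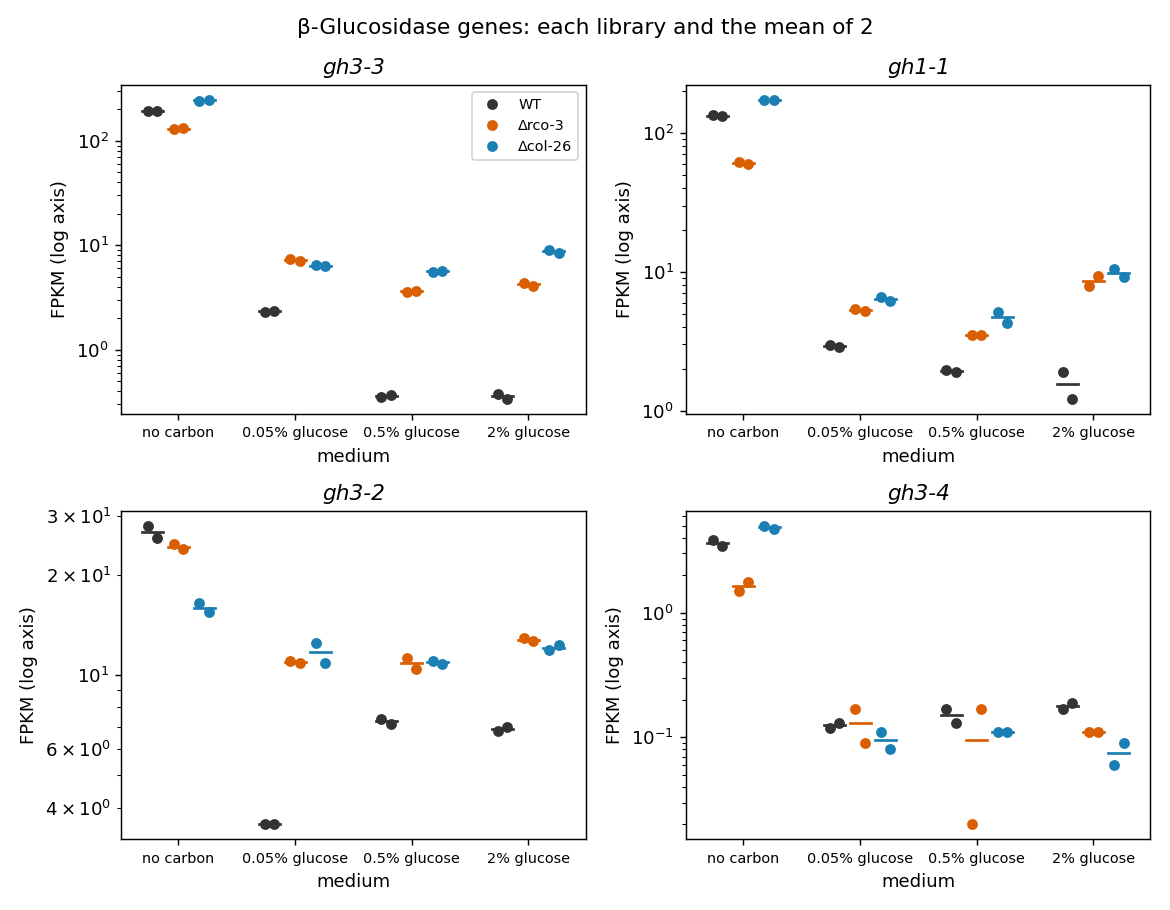
FPKM on a log axis of 4 β-glucosidase genes in the 4 media, with 1 point per library and a bar at the mean of 2, in the WT (black), Δ*rco-3* (orange) and Δ*col-26* (blue). For *gh3-3* the WT points fall to 0.34 to 0.38 FPKM at 0.5 and 2% glucose while all mutant points stay at 3.59 or above, and *gh3-2* shows the WT minimum at 0.05% glucose.

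The cellobiohydrolases and endoglucanases were expressed at lower levels, with a summed FPKM in the WT of 56.8 and 54.5 without carbon source and 13.4 and 12.8 at 2% glucose. *cbh-1* (NCU07340, chromosome IV, 4311049 to 4314145), the GH7 cellobiohydrolase, stood in the WT at 14.8 and 15.1 FPKM without carbon source, 1.60 and 1.70 at 0.05% glucose, 1.70 and 1.57 at 0.5% and 1.04 and 1.27 at 2%. Δ*rco-3* libraries held 18.2 and 20.4 FPKM without carbon source, 5.19 and 5.66 at 0.05% glucose, 4.42 and 4.01 at 0.5% and 4.04 and 4.05 at 2%. Δ*col-26* libraries held 25.1 and 23.6 FPKM without carbon source, 3.04 and 3.58 at 0.05% glucose, 2.82 and 2.90 at 0.5% and 2.39 and 2.65 at 2%. It was called higher without carbon source in every strain, with 2.89 ± 0.0781 (SE), adjusted p = 6.84e-18 in the WT, and starved Δ*col-26* had the highest libraries. That mutant was above the starved WT by 0.67 ± 0.0781 and Δ*rco-3* by 0.35 ± 0.0781, neither of which reached the fold threshold. On glucose Δ*rco-3* was called above the WT at 0.05% (1.28) and at 2% (1.23), of which the former was lost under both scalings (0.84 and 0.56) and the latter under quantile normalization (0.75).

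*gh7-1* (NCU05057), of the same family, went the other way among the starved strains. The WT held 18.5 and 16.8 FPKM without carbon source and 1.34 and 1.48, 1.24 and 1.29, and 1.53 and 0.95 FPKM at 0.05, then 0.5, then 2% glucose. Δ*rco-3* held 10.2 and 9.91 FPKM without carbon source and 2.94 and 2.24, 1.69 and 1.60, and 2.01 and 1.55 FPKM at 0.05, then 0.5, then 2% glucose, and Δ*col-26* 7.42 and 7.01 FPKM without carbon source and 1.98 and 1.98, 0.92 and 1.11, and 1.54 and 1.03 FPKM at 0.05, then 0.5, then 2% glucose. Both starved WT libraries were above all starved mutant libraries. Starved Δ*col-26* was called below the WT (-1.18 ± 0.123 (SE), adjusted p = 4.71e-08, a call that quantile normalization put just short of the threshold, at -1.0), while Δ*rco-3* at -0.75 was not called. The response to starvation was 3.07 in the WT, and the mutant response minus that of the WT was -1.07 ± 0.174 for Δ*rco-3* and -1.21 ± 0.174 with Δ*col-26*, both called. Both tests lost their call under quantile normalization, with differences of -0.89 and -0.71. In Δ*rco-3* the call was also lost without WT library 2 at 2% glucose (-0.88) and without Δ*rco-3* library 1 at 2% glucose (-0.95).

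*gh6-2* (NCU09680), the GH6 cellobiohydrolase, stood in the WT at 7.94 and 6.12 FPKM without carbon source, 3.31 and 2.74 at 0.05% glucose, 3.91 and 4.87 at 0.5% and 3.90 and 4.15 at 2%. In Δ*rco-3* it stood at 12.2 and 14.1 FPKM without carbon source, 5.22 and 6.10 at 0.05% glucose, 5.45 and 5.03 at 0.5% and 6.33 and 5.89 at 2%, and in Δ*col-26* at 11.02 and 10.97 FPKM without carbon source, 3.27 and 3.51 at 0.05% glucose, 4.01 and 3.87 at 0.5% and 3.15 and 3.76 at 2%. Starved libraries were the highest in each strain, and the call was made in Δ*col-26* (1.43 ± 0.11 (SE), adjusted p = 2.63e-10), with 0.67 in the WT and 0.99 in Δ*rco-3*. *gh45-1* (NCU05121), a GH45 endoglucanase, held 4.15 and 4.82 FPKM without carbon source and 0.75 and 0.73, 1.57 and 0.78, and 0.78 and 1.04 FPKM at 0.05, then 0.5, then 2% glucose in the WT. It held 5.48 and 4.80 FPKM without carbon source and 1.09 and 1.66, 1.69 and 1.48, and 1.42 and 1.54 FPKM at 0.05, then 0.5, then 2% glucose in the Δ*rco-3* strain, and 3.20 and 3.31 FPKM without carbon source and 0.84 and 1.04, 0.67 and 0.66, and 0.61 and 0.86 FPKM at 0.05, then 0.5, then 2% glucose in the Δ*col-26* strain. Starved and glucose libraries did not overlap in any strain, and all 3 responses were called, at 1.52, 1.31 and 1.30, that in Δ*rco-3* being lost under quantile normalization (0.92).

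*gh6-3* (NCU07190, chromosome V, 6293016 to 6295011) differed between the strains on glucose. WT levels were 5.48 and 5.72 FPKM without carbon source, 2.70 and 3.04 at 0.05% glucose, 2.19 and 2.38 at 0.5% and 2.61 and 2.24 at 2%. Δ*rco-3* had 9.63 and 11.2 FPKM without carbon source, 8.13 and 7.76 at 0.05% glucose, 6.87 and 6.20 at 0.5% and 4.15 and 3.82 at 2%. Δ*col-26* had 6.86 and 6.26 FPKM without carbon source, 9.35 and 8.47 at 0.05% glucose, 10.2 and 9.27 at 0.5% and 8.38 and 7.83 at 2%. On glucose every mutant library was above every WT library, and in Δ*col-26* the glucose libraries were above the starved ones. Δ*col-26* was called above the WT at 0.05, 0.5 and 2% glucose, by 1.36 ± 0.0829, 1.71 ± 0.0829, and 1.41 ± 0.0829, and Δ*rco-3* at 0.05 and 0.5% glucose, by 1.21 ± 0.0829 and 1.2 ± 0.0829. Both Δ*rco-3* calls were lost under both scalings, with 0.72 and 0.47 at 0.05% and 0.97 and 0.72 at 0.5% glucose, and quantile normalization also lost the Δ*col-26* call at 0.05% (0.97). The response to starvation was called different between Δ*col-26* and the WT (-1.22 ± 0.117 (SE), adjusted p = 1.72e-08, and -0.80 without a call under quantile normalization). The locus overlaps NCU15135 in the annotation, and no statement on strand in counting was found in the sources, so its reads may include those of the neighbour.

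The other genes of this family were low or not called. *gh7-2* (NCU04854) was called in no comparison. The WT held 3.97 and 4.22 FPKM without carbon source, 2.04 and 1.78 at 0.05% glucose, 2.83 and 3.15 at 0.5% and 3.12 and 2.75 at 2%. Δ*rco-3* held 4.65 and 5.37 FPKM without carbon source, 4.14 and 3.03 at 0.05% glucose, 2.52 and 2.59 at 0.5% and 2.83 and 2.49 at 2%, and Δ*col-26* 5.09 and 4.55 FPKM without carbon source, 1.87 and 2.44 at 0.05% glucose, 2.30 and 2.04 at 0.5% and 2.01 and 2.24 at 2%. The highest libraries of each strain were the starved ones, without overlap with glucose. *gh5-1*, a GH5 endoglucanase, lay between 0.11 and 1.29 FPKM with its highest library in starved Δ*col-26*. *gh7-4* was listed at 0 in 17 libraries and reached 0.65 FPKM in the starved WT, and *gh6-1* did not pass 0.36 FPKM.

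The AA9 genes showed several patterns. Their summed FPKM in the WT was 86.6 and 79.2 without carbon source and 74.7 and 72.9 at 2% glucose, but without *NCU07974* the sums were 65.3 and 60.3 against 24.8 and 25.5. *NCU07974* (chromosome IV, 3772911 to 3775201), which has no symbol in the annotation used, therefore made up most of the AA9 sum of the WT at 2% glucose. The WT held 21.4 and 18.9 FPKM without carbon source, 29.5 and 29.0 at 0.05% glucose, 53.6 and 53.3 at 0.5% and 49.9 and 47.5 at 2%. Values in Δ*rco-3* were 16.4 and 19.0 FPKM without carbon source, 26.1 and 27.0 at 0.05% glucose, 26.7 and 29.1 at 0.5% and 21.6 and 20.03 at 2%. In Δ*col-26* they were 6.72 and 5.97 FPKM without carbon source, 25.9 and 25.4 at 0.05% glucose, 38.2 and 38.8 at 0.5% and 35.6 and 37.4 at 2%. It was called lower without carbon source in the WT (-1.23 ± 0.0662 (SE), adjusted p = 6.12e-13) and in Δ*col-26* (-2.35 ± 0.0662 (SE), adjusted p = 2.07e-17), while Δ*rco-3* gave -0.23. No other gene of the 31 was called lower on the values as deposited, though *NCU02344* was in the WT under median-ratio scaling (-1.09), quantile normalization (-1.31) and a pseudocount of 0.1 (-1.11). Starved Δ*col-26* libraries were the lowest of the 24, called below the starved WT (-1.53 ± 0.0662), and at 2% glucose Δ*rco-3* was called below the WT (-1.19 ± 0.0662). The responses of the 2 mutants differed from that of the WT in opposite directions, with 1.01 ± 0.0936 in the Δ*rco-3* strain and -1.12 ± 0.0936 in the Δ*col-26* strain. The latter call was lost under both scalings (-0.87 and -0.80), and the former fell to between 0.91 and 0.97 and lost its call in 4 fits that left out WT library 2 without carbon source, WT library 1 at 2% glucose, Δ*rco-3* library 2 without carbon source or Δ*rco-3* library 2 at 2% glucose. The locus overlaps NCU07975 in the annotation, so its reads may be shared.

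*gh61-5* (NCU08760), the neighbour of *gh3-3*, was highest in starved Δ*col-26*. It stood in the WT at 3.47 and 2.89 FPKM without carbon source, 1.21 and 1.00 at 0.05% glucose, 1.61 and 1.54 at 0.5% and 1.43 and 1.63 at 2%. Δ*rco-3* held 9.75 and 9.26 FPKM without carbon source, 1.68 and 2.09 at 0.05% glucose, 1.77 and 1.37 at 0.5% and 1.95 and 2.11 at 2%. Δ*col-26* held 22.5 and 21.9 FPKM without carbon source, 1.31 and 1.80 at 0.05% glucose, 1.39 and 1.24 at 0.5% and 0.96 and 1.24 at 2%. All glucose libraries were between 0.96 and 2.11 FPKM in every strain, and without carbon source the strains stood in the order WT, Δ*rco-3*, Δ*col-26*, with no overlap. Against the starved WT the differences were 1.33 ± 0.108 (SE), adjusted p = 1.84e-09 in the Δ*rco-3* strain and 2.48 ± 0.108 (SE), adjusted p = 6.89e-14 in the Δ*col-26* strain, and starved Δ*rco-3* was called below starved Δ*col-26* (-1.14 ± 0.108). By mean FPKM starved Δ*col-26* was 6.98-fold above the starved WT. The response to starvation was larger than in the WT by 1.07 ± 0.152 in Δ*rco-3*, which fell to 0.97 without WT library 2 from the medium with no carbon source, and by 2.75 ± 0.152 in Δ*col-26*. The neighbour *gh3-3* did not show this order in the same libraries.

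*gh61-6* (NCU03328) had its highest libraries in starved Δ*rco-3*. The WT held 6.02 and 6.11 FPKM without carbon source and 2.61 and 3.29, 1.68 and 2.26, and 1.89 and 1.74 FPKM at 0.05, then 0.5, then 2% glucose. Δ*rco-3* held 15.4 and 15.0 FPKM without carbon source and 2.99 and 2.45, 1.49 and 1.49, and 0.93 and 1.16 FPKM at 0.05, then 0.5, then 2% glucose. Δ*col-26* held 9.98 and 11.1 FPKM without carbon source and 1.15 and 1.31, 1.73 and 1.35, and 1.66 and 1.79 FPKM at 0.05, then 0.5, then 2% glucose. Starved Δ*rco-3* was called above the starved WT (1.2 ± 0.107 (SE), adjusted p = 7.31e-09), though not under the scalings (0.96 and 0.97), and its response exceeded that of the WT by 1.66 ± 0.151. The response was called in all 3 strains, at 1.33, 2.99 and 2.08.

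*gh61-1* (NCU02240) responded alike in sign in each strain. WT levels were 8.55 and 8.70 FPKM without carbon source, 0.27 and 0.23 at 0.05% glucose, 0.75 and 0.84 at 0.5% and 0.96 and 0.87 at 2%. Δ*rco-3* had 12.5 and 11.7 FPKM without carbon source, 2.01 and 1.93 at 0.05% glucose, 1.69 and 1.67 at 0.5% and 1.67 and 1.23 at 2%, and Δ*col-26* 11.9 and 11.1 FPKM without carbon source, 1.37 and 1.31 at 0.05% glucose, 0.85 and 1.18 at 0.5% and 0.88 and 0.98 at 2%. The responses were 2.33 ± 0.0895, 2.42 ± 0.0895 and 2.70 ± 0.0895, all called. At 0.05% glucose the WT libraries were the lowest of the 24, and Δ*rco-3* was called above them (1.25, and 0.80 without a call under quantile normalization). *NCU07898* was a low counterpart. In starved libraries it stood at 1.30 and 1.57 FPKM in the WT, 3.01 and 2.44 in the Δ*rco-3* strain and 4.30 and 4.07 in the Δ*col-26* strain. On 0.05, 0.5 and 2% glucose the WT held 0.24 and 0.22, 0.24 and 0.34, and 0.09 and 0.25, Δ*rco-3* 0.63 and 0.79, 0.47 and 0.31, and 0.39 and 0.78, and Δ*col-26* 0.22 and 0.09, 0.17 and 0.20, and 0.22 and 0.27. No glucose library reached 1 FPKM, so *NCU07898* entered the tests only through the starved groups and its calls against glucose are a description. Starved Δ*col-26* was called above the starved WT (1.09 ± 0.12).

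*gh61-2* (NCU07760, chromosome V, 394274 to 396048) was the AA9 gene with the highest starved WT level after *NCU07974*. The WT held 18.5 and 16.6 FPKM without carbon source, 14.0 and 15.2 at 0.05% glucose, 3.94 and 4.16 at 0.5% and 5.22 and 5.12 at 2%. In Δ*rco-3* the values were 7.34 and 6.95 FPKM without carbon source, 4.52 and 3.86 at 0.05% glucose, 3.58 and 3.58 at 0.5% and 1.51 and 1.66 at 2%. In Δ*col-26* they were 7.05 and 6.40 FPKM without carbon source, 8.31 and 8.28 at 0.05% glucose, 10.7 and 11.3 at 0.5% and 5.48 and 5.06 at 2%. In the WT the level without carbon source and at 0.05% glucose was high and at 0.5 and 2% low, with both steps from 2% glucose called (1.58 ± 0.0718 and 1.33 ± 0.0718). Both starved mutants were called below the starved WT, Δ*rco-3* at -1.18 ± 0.0718 and Δ*col-26* at -1.26 ± 0.0718. Δ*rco-3* was also below the WT at 0.05% (-1.59 ± 0.0718) and 2% glucose (-1.26 ± 0.0718). In Δ*col-26* the highest libraries were at 0.5% glucose, where it was called above the WT (1.25 ± 0.0718) and above Δ*rco-3* (Δ*rco-3* minus Δ*col-26*, -1.39 ± 0.0718). The response to starvation was smaller in Δ*col-26* than in the WT (-1.28 ± 0.102 (SE), adjusted p = 9.33e-10, and -0.93 without a call under quantile normalization).

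**Figure D4:**
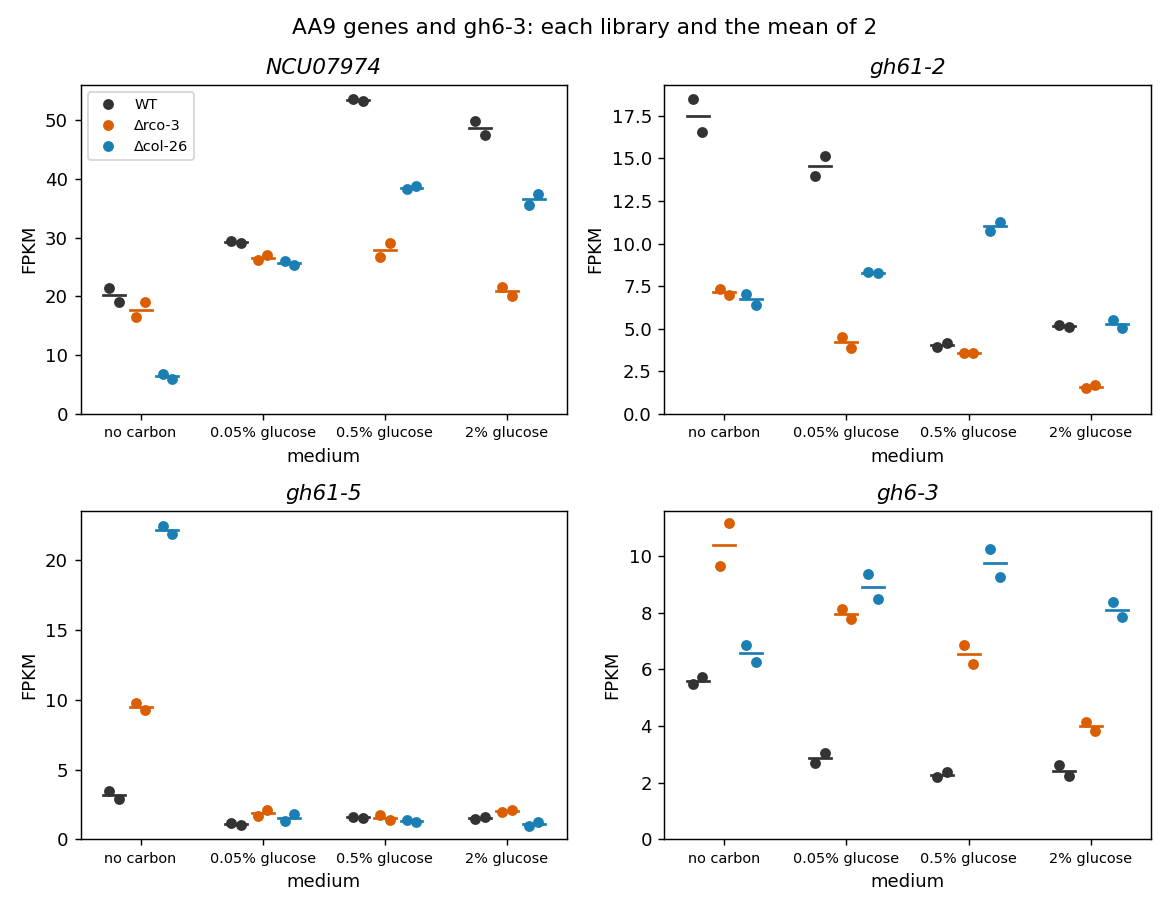
FPKM from 0 of *NCU07974*, *gh61-2*, *gh61-5* and *gh6-3* in the 4 media, with 1 point per library and a bar at the mean of 2, in the WT (black), Δ*rco-3* (orange) and Δ*col-26* (blue). *NCU07974* is lowest in starved Δ*col-26* (5.97 and 6.72 FPKM), *gh61-5* stands apart in the starved mutants, and *gh6-3* is higher in both mutants than in the WT in all glucose media.

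*gh61-7* (NCU00836) held 9.77 and 8.16 FPKM without carbon source and 1.22 and 1.40, 1.12 and 1.05, and 1.44 and 1.38 FPKM at 0.05, then 0.5, then 2% glucose in the WT. It held 6.83 and 7.13 FPKM without carbon source and 2.38 and 3.62, 2.80 and 2.73, and 0.76 and 0.94 FPKM at 0.05, then 0.5, then 2% glucose in the Δ*rco-3* strain and 5.13 and 4.91 FPKM without carbon source and 3.42 and 3.02, 3.57 and 2.98, and 3.24 and 2.99 FPKM at 0.05, then 0.5, then 2% glucose in the Δ*col-26* strain. The WT and Δ*rco-3* rose without carbon source (2.04 and 2.11), and Δ*col-26*, whose glucose libraries held 2.98 to 3.57 FPKM, gave 0.55 without a call. The difference between Δ*col-26* and the WT was called (-1.49 ± 0.162 (SE), adjusted p = 9.71e-08). At 0.5% glucose Δ*col-26* was called above the WT (1.03), a call lost under quantile normalization (0.83) and without Δ*col-26* library 1 at 0.5% glucose (0.93), and at 2% glucose Δ*rco-3* was called below Δ*col-26* (-1.15).

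*gh61-3* (NCU02916) stood in the WT at 5.30 and 5.84 FPKM without carbon source, 4.73 and 4.41 at 0.05% glucose, 2.38 and 2.09 at 0.5% and 2.08 and 2.24 at 2%. Δ*rco-3* held 10.3 and 10.9 FPKM without carbon source, 7.35 and 6.91 at 0.05% glucose, 6.26 and 5.82 at 0.5% and 3.83 and 3.63 at 2%, and Δ*col-26* 4.82 and 5.25 FPKM without carbon source, 4.62 and 4.71 at 0.05% glucose, 4.95 and 4.33 at 0.5% and 3.27 and 3.43 at 2%. In every medium both Δ*rco-3* libraries were above both WT libraries, and the difference was called at 0.5% glucose (1.12 ± 0.0732 (SE), adjusted p = 4.53e-11), though not with the scalings (0.9 and 0.65). *gh61-9* (NCU05969) was called in no comparison. The WT held 8.07 and 6.92 FPKM without carbon source and 9.31 and 9.78, 5.89 and 5.91, and 6.95 and 7.40 FPKM at 0.05, then 0.5, then 2% glucose. Δ*rco-3* held 11.6 and 11.5 FPKM without carbon source and 9.51 and 9.69, 9.30 and 9.24, and 10.9 and 10.8 FPKM at 0.05, then 0.5, then 2% glucose, and Δ*col-26* 7.94 and 8.44 FPKM without carbon source and 5.56 and 6.18, 6.01 and 5.47, and 5.73 and 6.63 FPKM at 0.05, then 0.5, then 2% glucose. All of its libraries lay between 5.47 and 11.58 FPKM.

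*NCU02344*, without a symbol in the annotation used, was lower in the mutants on glucose. WT values were 2.24 and 1.60 FPKM without carbon source, 4.0 and 4.84 at 0.05% glucose, 2.70 and 2.99 at 0.5% and 4.33 and 4.10 at 2%. Those of Δ*rco-3* were 1.68 and 1.97 FPKM without carbon source, 1.85 and 2.13 at 0.05% glucose, 2.12 and 1.83 at 0.5% and 1.04 and 1.23 at 2%, and those of Δ*col-26* 1.12 and 1.40 FPKM without carbon source, 1.49 and 1.68 at 0.05% glucose, 1.76 and 1.72 at 0.5% and 1.79 and 1.75 at 2%. All mutant libraries on glucose were below all WT libraries on glucose. Δ*rco-3* was called below the WT at 2% glucose (-1.29 ± 0.107 (SE), adjusted p = 1.57e-09), and Δ*col-26* at 0.05% glucose (-1.06, and -0.95 without a call when WT library 2 at 0.05% glucose was left out). The response of Δ*rco-3* to starvation differed from that of the WT by 1.25 ± 0.152, although neither response was called by itself (-0.85 in the WT and 0.40 in Δ*rco-3*).

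*gh61-4* (NCU01050) was the clearest case of a gene seen in 1 group. It was listed at 0 in 13 libraries. Starved Δ*col-26* held 2.57 and 2.25 FPKM, starved Δ*rco-3* 0.09 and 0.18 and the starved WT 0.36 and 0. The WT had 0.09 and 0, 0 and 0, and 0.09 and 0 on 0.05, 0.5 and 2% glucose, Δ*rco-3* 0 and 0.09, 0 and 0, and 0 and 0, and Δ*col-26* 0 and 0.09, 0.35 and 0, and 0 and 0.09. Its mean passed 1 FPKM in starved Δ*col-26* alone, at 2.41 against 0.18 or less in every other group, so it entered the tests through the group in which it was high and had to differ there. Its calls, which the counts for starved Δ*col-26* include, are thus a description and not a test. *gh61-10* at 0.08 to 1.62 FPKM, *gh61-8* at 0 to 1.46 and *gh61-11* at 0 to 1.02 were lower, and *gh61-11* had its highest library in starved Δ*rco-3*. The cellobiose dehydrogenase genes were also low, *cdh-1* at 0.35 to 2.91 FPKM with its highest value in starved WT library 2 and *cdh-2* at 0 to 1.62 with its highest in starved Δ*rco-3* library 2. Against 2% glucose *cdh-1* was called higher in the starved WT (1.23 ± 0.117) and *cdh-2* in starved Δ*rco-3* (1.19 ± 0.0919). The mean of *cdh-2* reached 1 FPKM only in the starved mutants, so its call is a description.

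Small amounts of glucose were compared with ample glucose next. In the WT, 2 genes were called between 0.05% and 2% glucose, *gh61-2* and *gh3-3* (1.29 ± 0.0474), both higher, where 17.5% of all genes were called and 6.75% were called higher. In Δ*rco-3* 2 genes were called higher, *gh61-7* (1.10) and *gh61-2* (1.00), where 1.79% of all genes were called, 1.49% higher and 0.301% lower. Quantile normalization lost both (0.85 and 0.79), median-ratio scaling lost *gh61-2* (0.93), *gh61-7* was lost without Δ*rco-3* library 2 at 0.05% glucose (0.87), and *gh61-2* without library 1 at 0.05% (0.91) or at 2% (0.96). In Δ*col-26* limma called 0 genes, where 1.78% of all genes were called. An unadjusted p under 0.05 was found for 12 of the 28 tested, 6 higher and 6 lower, with changes of at most 0.57. The share of all genes at that p is not given here, so this count has no background to be read against. Between no carbon source and 0.05% glucose 10 genes were called in the WT, all higher, where 44.3% of all genes were called, 30.9% higher and 13.4% lower, and the split was 10 higher and 2 lower by median-ratio scaling. Most of the WT response of *gh3-3* thus lay between 0.05% glucose and none, a 82.1-fold step against a 6.49-fold step between 2% and 0.05%.

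The mutants were then compared with the WT in the same medium, as the study did for the transcriptome. Without carbon source Δ*rco-3* differed in 4 of the 28 genes tested, 2 higher (*gh61-6* and *gh61-5*) and 2 lower (*gh61-2* and *gh1-1*). Of all genes tested 7.17% were called, 4.21% higher and 2.96% lower. The split was 1 and 2 by median-ratio scaling and 1 and 3 by quantile normalization. Δ*col-26* differed in 6, with *gh61-4*, *NCU07898* and *gh61-5* higher and *gh7-1*, *gh61-2* and *NCU07974* lower, where 15.4% of all genes were called, 7.25% higher and 8.11% lower. Both comparisons share the WT libraries. The medians over the 31 genes were 0.16 and 0.14, and those over all loci 0.15 and -0.06.

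**Figure D5:**
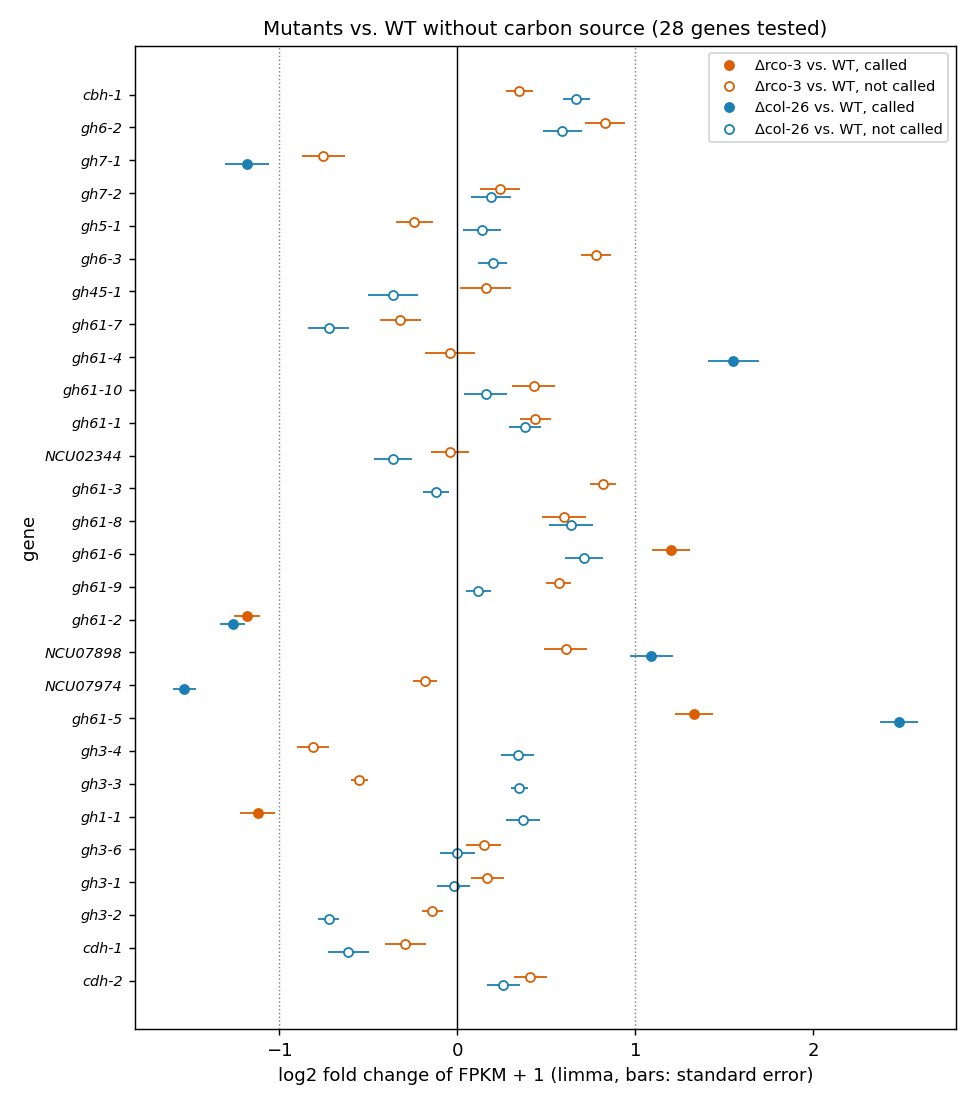
Points give the log2 fold change of FPKM + 1 against the WT without carbon source for each of the 28 genes tested, in Δ*rco-3* (orange) and Δ*col-26* (blue), with bars for the standard error. Filled points are called, beyond the dotted lines at 1 and -1. *gh61-2* is called lower and *gh61-5* higher in both mutants, and *gh1-1* is called in Δ*rco-3* only.

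On glucose most calls were of genes at low FPKM, and each count is given beside the share of all genes called. At 0.05% glucose 6 genes were called in Δ*rco-3*, 5 higher (*cbh-1*, *gh6-3*, *gh61-1*, *gh3-3* and *gh3-2*) and 1 lower (*gh61-2*), where 25.4% of all genes were called, 21% higher and 4.35% lower. This direction did not hold under other scalings, which gave 1 higher and 2 lower (median-ratio) and 0 higher and 3 lower (quantile). *gh3-3* was called by 1.30 ± 0.0474 and lost under both (0.83 and 0.57). In Δ*col-26* 4 genes were called at 0.05% glucose, 3 higher (*gh6-3*, *gh3-3* and *gh3-2*) and 1 lower (*NCU02344*), where 17.4% of all genes were called, 12% higher and 5.4% lower. There the split was 2 and 4 by median-ratio scaling and 1 and 3 by quantile normalization, and *gh3-3* (1.14 ± 0.0474) was lost under both (0.92 and 0.77).

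At 0.5% glucose 3 genes were called in Δ*rco-3*, all higher (*gh6-3*, *gh61-3* and *gh3-3*), where 12.8% of all genes were called, 9.47% higher and 3.32% lower. In the Δ*col-26* strain 4 were called, all higher (*gh6-3*, *gh61-7*, *gh61-2* and *gh3-3*), where 12.6% were called, 8.39% higher and 4.22% lower. The split in Δ*rco-3* was 1 higher and 1 lower under either scaling. At 2% glucose 6 genes were called in Δ*rco-3*, 3 higher (*cbh-1*, *gh3-3* and *gh1-1*) and 3 lower (*NCU02344*, *gh61-2* and *NCU07974*), where 15.4% of all genes were called, 11.2% higher and 4.21% lower. In Δ*col-26* 3 were called, all higher (*gh6-3*, *gh3-3* and *gh1-1*), where 16.3% were called, 11.3% higher and 4.97% lower, and either scaling gave 3 higher and 1 lower. *gh3-3* was higher in both mutants at every glucose level on the values as deposited, and at 2% glucose its difference was 1.95 ± 0.0474 (SE), adjusted p = 6.65e-18 in the Δ*rco-3* strain and 2.84 ± 0.0474 (SE), adjusted p = 1.43e-20 in the Δ*col-26* strain.

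The 2 mutants were also set against each other. Without carbon source 5 genes were called, *NCU07974* higher in Δ*rco-3* (1.35) and *gh61-4*, *gh61-5*, *gh3-4* and *gh1-1* lower (-1.59, -1.14, -1.16, and -1.49), where 8.63% of all genes were called, 5.01% higher and 3.62% lower. The call of *NCU07974* was lost under both scalings (0.99 and 0.98), which each left 0 higher and 5 lower. At 0.05% glucose limma called 0 genes, where 2.91% of all genes were called. An unadjusted p under 0.05, for which no share of all genes is given, was found for 14, 12 higher and 2 lower in Δ*rco-3*. The split was 7 and 7 by median-ratio scaling and 5 and 7 by quantile normalization, each of which called 1 gene, *gh61-2*, lower in Δ*rco-3* (-1.08 and -1.2). At 0.5% glucose 1 was called, *gh61-2*, lower in Δ*rco-3*, where 2.1% were called and 1.45% called lower. At 2% glucose 2 were, *gh61-7* and *gh61-2* (-1.28), both lower in Δ*rco-3*, where 3.87% were called and 2.74% called lower.

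Counted over the 28 genes tested, the response to starvation differed from that of the WT in 7 for Δ*rco-3*, 4 with a larger and 3 with a smaller value. Of all genes tested 18.2% were called, 7.22% larger and 10.9% smaller. For Δ*col-26* it differed in 10, 2 with a larger and 8 with a smaller value, where 20.9% of all genes were called, 6.28% larger and 14.6% smaller, and this split was 3 and 7 by median-ratio scaling and 5 and 4 by quantile normalization.

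Finally, the regulators and transporters of this pathway were read in the same libraries, from a list of 6 regulators and 2 cellodextrin transporters. The regulators include *col-26* itself, so its differences between Δ*col-26* and the other strains were fixed by the deletion and are no test. Between no carbon source and 2% glucose 3 regulators rose in the WT (*clr-1*, *clr-2* and *xlr-1*, the latter encoding the xylanase regulator) and 2 fell (*cre-1* and *vib-1*, the latter encoding a transcription factor known to be needed for cellulase production), and both transporters rose. In Δ*rco-3* 2 rose and 2 fell, in Δ*col-26* 1 rose and 1 fell, and both transporters rose in each. Over all genes tested, 27.5% were called higher and 16.8% lower for the WT. The Δ*rco-3* mutant had shares of 20% higher and 12.5% lower, the Δ*col-26* mutant 18.2% higher and 16.3% lower. *clr-2* stood at 4.48 and 4.81 FPKM in the starved WT, 4.26 and 3.82 in starved Δ*rco-3* and 5.65 and 5.52 in starved Δ*col-26*, and at 0.36 or below in every glucose library. It thus entered the tests only through the starved groups. Its calls against glucose, which the counts of regulators include, are a description and not a test. *clr-1* held 38.7 and 40.1 FPKM without carbon source and 16.8 and 17.4, 7.0 and 7.13, and 6.01 and 5.93 FPKM at 0.05, then 0.5, then 2% glucose in the WT. It held 35.7 and 34.7 FPKM without carbon source and 20.8 and 21.8, 18.9 and 19.2, and 17.6 and 16.6 FPKM at 0.05, then 0.5, then 2% glucose in the Δ*rco-3* strain, and 12.7 and 12.4 FPKM without carbon source and 16.6 and 16.4, 14.4 and 14.4, and 13.3 and 13.7 FPKM at 0.05, then 0.5, then 2% glucose in the Δ*col-26* strain. The Δ*col-26* mutant was thus below the WT without carbon source (-1.58 ± 0.0414 (SE), adjusted p = 2.66e-17) and hardly changed with the medium (-0.09).

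*cre-1*, the repressor, stood at 13.5 and 14.6 FPKM in the starved WT and 52.0 and 50.9 at 2% glucose, against 62.8 and 62.5 and 92.3 and 88.9 in Δ*col-26*. In Δ*rco-3* the means of *cre-1* were 24.3 FPKM without carbon source and 65.0 FPKM at 2% glucose. For *cre-1*, starved Δ*col-26* was called above the starved WT (2.08 ± 0.0377 (SE), adjusted p = 8.27e-20). In the same comparison 3 of the 28 enzyme genes tested were called higher, the descriptive call of *gh61-4* among them, and 3 lower. *gh3-3* and *gh1-1* were not called there. Whether the level of *cre-1* bears on that of the enzyme genes was not tested. *cdt-2* went from 0.27 and 0.52 FPKM at 2% glucose to 254 and 234 in the starved WT, and at 2% glucose it stood at 9.85 and 10.2 in the Δ*rco-3* strain and 29.1 and 32.1 in the Δ*col-26* strain, so that, like *gh3-3* and *gh1-1*, it was called above the WT in both mutants on 2% glucose (2.99 and 4.51). None of the 80 calls of these 8 genes, *col-26* and the descriptive calls of *clr-2* included, over the 21 comparisons changed sign under median-ratio scaling or quantile normalization. Of these calls 5 and 4 were lost, that of *clr-1* in Δ*rco-3* among them (0.73 and 0.83).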

How the data were processed

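RNA-Seq of 24 libraries was analysed (3 strains, 4 media, 2 libraries each), grouped by the sample labels. The authors deposited FPKM per locus. They trimmed reads with Trimmomatic 0.36, aligned them to predicted OR74A transcripts and quantified them with RSEM 1.2.8. The paper's methods name Bowtie2 as aligner, the submitters' processing notes HISAT2 2.1.0. Since FPKM are relative to the library, abundant genes can shift the rest.

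The values were tested in R 4.3.3 with limma 3.58.1 (trend) on log2(FPKM + 1), all 12 groups fitted together (residual degrees of freedom 12, prior 6.31), over the 7981 genes that reached a mean of 1 FPKM in some group, and p-values were Benjamini-Hochberg adjusted over all of them. The adjusted p and fold thresholds are those of the paper's methods, and its FPKM threshold of 20 entered a stricter count only. With 2 libraries per group p-values rest on a spread pooled over groups. Fits were tested on simulated data. The changed genes of the simulation all lay above 20 FPKM in the WT at 2% glucose, so the recovery of changes in lower genes was not tested. Tables and figures used Python 3.11.15, numpy 2.4.6, pandas 2.3.3 and matplotlib 3.10.9. Symbols and coordinates came from the RefSeq annotation of NC12, which held 9729 of the 9730 loci. 2 listed loci without a symbol were not used.

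The rule for the members is enzyme family alone, but members and lists were chosen with earlier results of these data known. A member was described by library where a group mean reached 5 FPKM or it was called in at least 3 comparisons (21 of 31), others by range. Alternatives were a pseudocount of 0.1 or 5, a block on the replicate number, fits of only the groups compared, no variance trend, quantile normalization, median-ratio scaling, no filter, a mean of at least 5 FPKM, adjusted p below 0.05 and each library left out.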

Additional observations from a re-analysis of the deposited data

Results flagged for a closer look

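For 17 results the response to starvation (no carbon source *vs.* 2% glucose) differed between a mutant and the WT by a test of the difference itself, an interaction term in the limma fit, given as the log2 response of the mutant minus that of the WT. In Δ*rco-3* 7 genes were called, where 18.2% of all genes tested were, with 4 above the WT response, *NCU02344* (1.25), *gh61-6* (1.66), *NCU07974* (1.01) and *gh61-5* (1.07), and 3 below it, *gh7-1* (-1.07), *gh3-3* (-2.49) and *gh1-1* (-3.04). In Δ*col-26* 10 were called, where 20.9% of all genes were, with 2 above it, *gh61-4* (1.55) and *gh61-5* (2.75), and 8 below it, *gh7-1* (-1.21), *gh6-3* (-1.22), *gh61-7* (-1.49), *gh61-2* (-1.28), *NCU07974* (-1.12), *gh3-3* (-2.49), *gh1-1* (-1.72) and *gh3-2* (-1.45). The Δ*col-26* split was 3 and 7 by median-ratio scaling and 5 and 4 by quantile normalization, and both mutants share the WT libraries. *gh61-4* entered the tests only through starved Δ*col-26*, and its value, whose call was lost with a pseudocount of 0.1 (adjusted p = 0.00532, limma), is a description. *gh3-3*, *gh1-1* and *gh7-1* responded less in both mutants and *gh61-5* more, though quantile normalization lost both calls of *gh7-1* (-0.89 and -0.71). In Δ*col-26* it also lost *gh6-3* (-0.80) and *gh61-2* (-0.93), and both scalings lost *NCU07974* (-0.87 and -0.80). In Δ*rco-3* the differences of *gh7-1*, *NCU07974* and *gh61-5* fell short of the fold threshold in some fits that left out a library. No group of 4 or more libraries existed, so no library was tested as an outlier within its group.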

How the results depend on the processing

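Of the 122 calls of single genes over the 21 comparisons, 122 were kept with the replicate number as a block, without the variance trend, without the filter and with only the groups compared. An adjusted p below 0.05 is a looser cutoff on the same fit, so it kept all 122 by construction. With a mean of at least 5 FPKM 99 of 99 were kept, and with a pseudocount of 0.1 121 were (the difference of *gh61-4* between Δ*col-26* and the WT lost its call). Median-ratio scaling kept 102 calls, quantile normalization 88 and a pseudocount of 5 kept 47. None changed direction. Replicate numbers did not pair the libraries (r of -0.34 to 0.21 between groups, above 0.1 in 5 of 66 pairs of groups), and the block left every count of calls as it was, with 15, 18 and 14 calls for no carbon source *vs.* 2% glucose.

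Most genes lie near the pseudocount, so the counts moved with it. With a pseudocount of 0.1 the calls for no carbon source *vs.* 2% glucose in the WT went from 15 to 23, for 0.05% *vs.* 2% from 2 to 4 and for no carbon source *vs.* 0.05% from 10 to 20. Those for Δ*rco-3 vs.* WT at 0.5% glucose went from 3 to 5, for Δ*col-26 vs.* WT at 0.05% from 4 to 10 and at 2% from 3 to 7, and between the mutants at 0.05, 0.5 and 2% from 0, 1 and 2 to 2, 2 and 4. With a pseudocount of 5 no carbon source *vs.* 2% glucose gave 9, 8 and 7 in the strains (WT, then Δ*rco-3*, then Δ*col-26*), and 0.05% *vs.* 2% gave 0 in the WT and Δ*rco-3*. Δ*rco-3 vs.* WT gave 1, 1, 0 and 2 in the 4 media, Δ*col-26 vs.* WT 2, 0 and 1 without carbon source and at 0.05 and 0.5% glucose, the comparison of the mutants 1, 0 and 0 without carbon source and at 0.5 and 2%, and the interactions 3 and 3. By construction a larger pseudocount shrinks changes of low genes.

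Under median-ratio scaling Δ*rco-3* at 0.05% *vs.* 2% gave 1 call, Δ*rco-3 vs.* WT at 0.05% gave 3, and the comparison of the mutants gave 1 at 0.05% and 4 at 2%. Quantile normalization gave 0, 3, 1 and 4 for these and 10 for no carbon source *vs.* 2% glucose in Δ*rco-3*. The comparison of the mutants without carbon source gave 3 with a mean of at least 5 FPKM, where fewer genes are tested. Other causes were not tested. Median-ratio scaling, over 7896 genes above 0 in all libraries, moved log2 differences of FPKM by -0.34, -0.27 and -0.09 for no carbon source *vs.* 2% glucose in the strains (WT, then Δ*rco-3*, then Δ*col-26*), by 0.25 for 0.05% *vs.* 2% and -0.59 for no carbon source *vs.* 0.05% in the WT, by -0.24, -0.61, -0.29 and -0.3 between Δ*rco-3* and WT without carbon source and at 0.05, 0.5 and 2%, by 0.14, -0.32 and -0.11 between Δ*col-26* and WT without carbon source and at 0.05 and 2%, by -0.38, -0.29, -0.26 and -0.19 between the mutants in the 4 media and by 0.25 for the Δ*col-26* interaction.

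With each library left out, 537 of 556 calls were kept. The counts lay at 13 to 16, 16 to 19 and 14 to 14 for no carbon source *vs.* 2% glucose in the strains (WT, then Δ*rco-3*, then Δ*col-26*), and at 1 to 2 for 0.05% *vs.* 2% in Δ*rco-3*. The lone library is then assumed to vary like the other groups. Most of the genes lie below 20 FPKM, and the depth behind a value is known only relative to the other libraries, which limits what can be said of genes near 0.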
